A study of Homo sapiens with 12 samples.

Results

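Sonic hedgehog signalling genes were followed through human motor neuron cultures exposed to the organochlorine pesticide cis-chlordane. The set holds 9 genes, taken by name from the table of 28278 genes: the ligand SHH, the membrane receptors and ligand binders PTCH1, SMO, BOC, GAS1 and HHIP, and the transcription factors GLI1, GLI2 and GLI3. All 9 were present and all 9 passed the filter on low counts in each comparison. SHH passed among GFP-positive cells only through its control libraries, since its treated libraries held 4 to 6 counts. For the same reason it passed between the treated sort fractions only through GFP-negative libraries.

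The cultures were derived from human embryonic stem cells of the line WA09-Islet1-GFP, in which GFP marks cells that express the motor neuron transcription factor Islet1, and stood at day 16 of differentiation. Treated cultures received cis-chlordane, 10 uM by the sample labels, for 16 h and control cultures received the vehicle DMSO for 16 h. The study's text gives a higher dose, so the dose is uncertain. Cells were then sorted by FACS, which gave 4 groups of 3 libraries: control GFP-positive, treated GFP-positive, control GFP-negative and treated GFP-negative. All groups share this single line, no other allele or agent is named in the labels, and the study's replicates are separate thaws of frozen cells, so p-values describe the spread between such cultures. Every sample title opens with the word untreated, and treatment was therefore read from the treatment entry of the labels.

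The total count of a library lay between 23414935 and 38347050 (median 31553596). The sort was checked by ISL1, the gene behind the reporter, which averaged 65.7 CPM (read counts scaled to library size in the usual unit, with TMM factors) in control GFP-positive and 2.57 CPM in control GFP-negative cells. In treated GFP-positive cells ISL1 averaged 12.0 CPM and the summed level of 8 motor neuron markers ranged from 543 to 864 CPM, against 1718 to 2319 CPM in their controls, so the treated GFP-positive libraries held less of the RNA by which the sort is recognised. LHX3, another gene on that motor neuron list, was lower in GFP-positive than in GFP-negative controls, at 1.91 and 4.44 CPM. HSPA5, an endoplasmic reticulum chaperone, rose with treatment in both fractions, to 3180 from 319 CPM among GFP-positive and to 6041 from 512 CPM among GFP-negative cells. In these bulk libraries, fewer cells of a type and less RNA per cell cannot be told apart, and this holds for every level below.

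In the Hedgehog pathway the secreted ligand SHH binds the membrane receptor PTCH1, which otherwise holds the signal transducer SMO inactive, and BOC and GAS1 are co-receptors that help the ligand bind. Active SMO acts through the primary cilium on the GLI transcription factors, of which GLI2 is mainly an activator, GLI3 mainly a repressor and GLI1 an activator that is itself a target gene. PTCH1 and HHIP, a membrane protein that binds and sequesters the ligand, are also targets and dampen the signal. In the developing spinal cord SHH from the notochord and floor plate patterns the ventral progenitors from which motor neurons arise, and motor neuron protocols supply an agonist of the pathway for the same reason.

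The promoter sequences shown here belong to PTCH1 and HHIP, the feedback genes of the set, whose values on treatment took opposite signs. Each is the stretch of 250 bases before a RefSeq transcript start on build GRCh38.p14, written 5′ to 3′ on the strand of the gene. They come from chr9:95509267-95509516 (minus strand, within an intron of longer PTCH1 transcripts) and chr4:144645906-144646155 (plus strand, within the span of the antisense gene HHIP-AS1).
PTCH1: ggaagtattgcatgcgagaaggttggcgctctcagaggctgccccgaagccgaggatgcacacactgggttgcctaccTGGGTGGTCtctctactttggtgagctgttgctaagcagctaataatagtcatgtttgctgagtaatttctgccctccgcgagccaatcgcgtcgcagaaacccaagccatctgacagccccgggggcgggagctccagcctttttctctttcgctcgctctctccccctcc
HHIP: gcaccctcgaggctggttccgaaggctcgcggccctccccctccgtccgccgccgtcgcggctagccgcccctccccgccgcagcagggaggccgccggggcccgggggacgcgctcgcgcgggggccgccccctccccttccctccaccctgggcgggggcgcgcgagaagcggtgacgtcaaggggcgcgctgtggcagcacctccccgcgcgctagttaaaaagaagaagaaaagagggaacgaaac
Capitals mark the letters of the GLI binding motif GACCACCCA, searched without mismatch on both strands in windows of 250 bases before to 50 bases after a start. In PTCH1 it occurs as its reverse complement TGGGTGGTC, which begins 172 bases before the start. The motif was found in 83 of 35116 windows of all genes, or 0.236%, and in 1 of 13 windows of the 9 genes. Windows were at hand for 7 of the 9, GLI1 and GLI3 being without them. PTCH1 has several start windows, of which the printed one alone holds the match. The match is a description of these letters only, and the HHIP window holds none.

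The 9 genes did not move as a block when cis-chlordane was added. In GFP-positive cells HHIP rose 5.44-fold while SHH fell 4.91-fold and GAS1 fell 2.17-fold. In GFP-negative cells SHH, GAS1, GLI2, PTCH1 and BOC fell, by 2.05-fold to 5.04-fold, and no member was called higher, while HHIP was 1.65-fold higher without passing the test. A gene was called where its adjusted p (edgeR quasi-likelihood test, Benjamini-Hochberg over all genes tested) was under 0.05 and its fold change was at least 2. By this rule 1 of 9 members was higher and 2 of 9 were lower in treated GFP-positive cells, beside 12.8% higher and 11.2% lower of all 15333 genes tested. In treated GFP-negative cells 0 of 9 were higher and 5 of 9 lower, beside 8.59% and 9.75% of 15513 genes. The median log2 fold change of the members was -0.53 among GFP-positive cells, where the median of all genes was 0.03, and -1.03 among GFP-negative cells, where it was -0.01.

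Several members had an adjusted p under 0.05 with a change of less than 2-fold. On the adjusted p alone, 5 of 9 were lower in treated GFP-positive cells (SHH, PTCH1, SMO, GAS1 and BOC) and 1, HHIP, was higher, beside 24.4% lower and 26.5% higher of all genes. On the same rule 7 of 9 were lower in treated GFP-negative cells, namely these 5 with GLI2 and GLI3, and 0 were higher, beside 16.2% and 15.3% of all genes. GLI1 passed neither rule in either fraction.

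**Figure D1:**
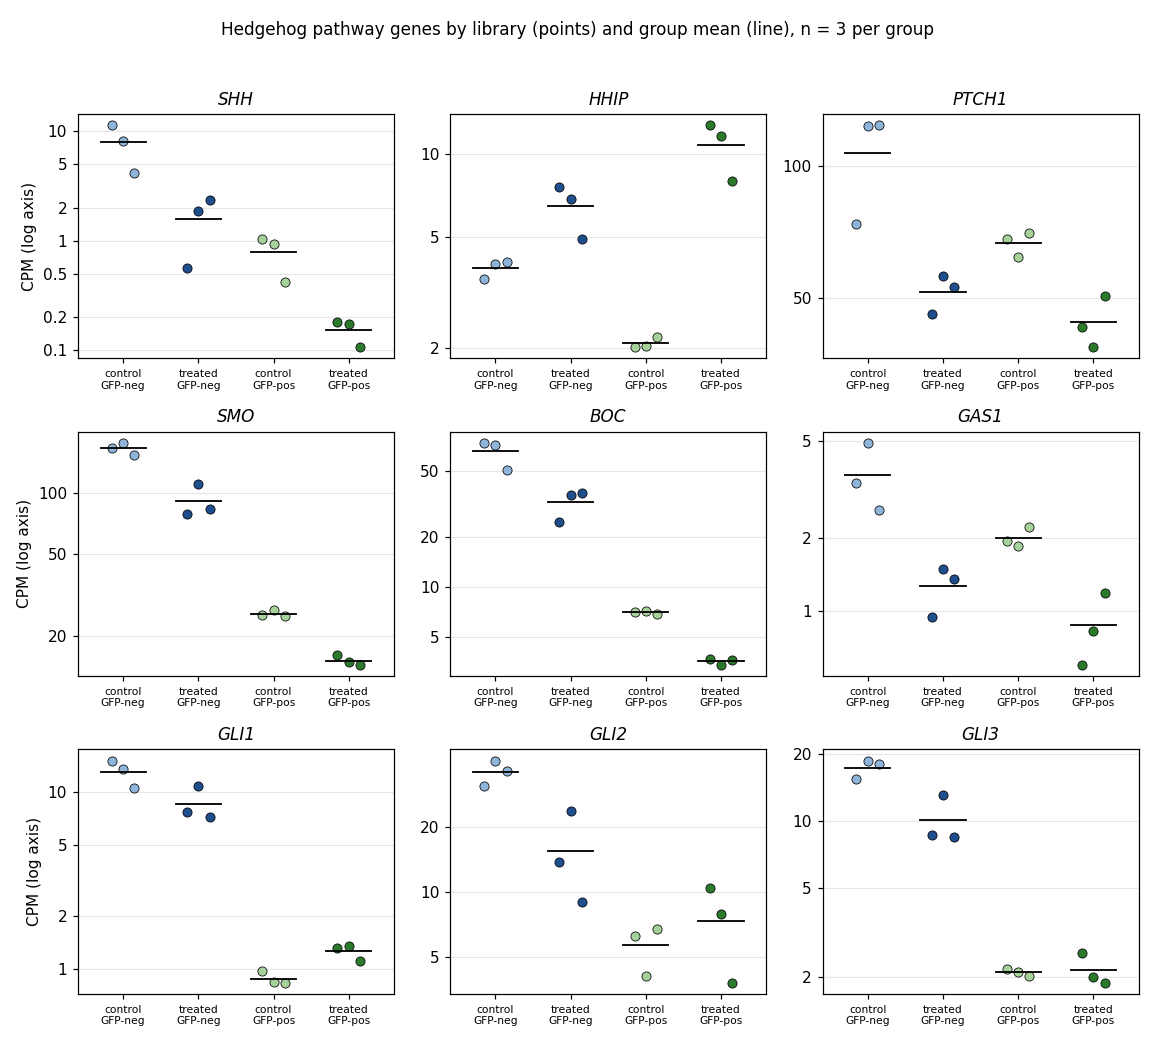
Level of each of the 9 genes in CPM on a log axis, with 1 point per library and a line at the mean of 3 libraries for each of the 4 groups. By group mean every gene but HHIP was highest in control GFP-negative cells. HHIP was highest in treated GFP-positive cells, at 8.0 to 12.7 CPM.

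SHH, the ligand, lies on chromosome 7 from 155799980 to 155812463 on the minus strand of hg38. In control GFP-negative cells it stood at 11.5, 8.16 and 4.12 CPM and in treated GFP-negative cells at 0.561, 1.85 and 2.34 CPM. These groups did not overlap, and the level of SHH was higher in this fraction than in GFP-positive cells of the same treatment. In GFP-positive cells the control libraries had 1.04, 0.927 and 0.416 CPM and the treated libraries 0.180, 0.172 and 0.106 CPM, again without overlap, on 13 to 32 and 4 to 6 counts. The log2 fold change on treatment was -2.33 (SE 0.52, edgeR adjusted p = 0.0083) among GFP-negative and -2.29 (SE 0.54, adjusted p = 6.3e-04) among GFP-positive cells. The difference between these responses was -0.05, with a 95% interval from -1.09 to 0.99, and its sign turned under several alternatives. With at least 10 counts demanded in every library SHH could not be tested among GFP-positive cells.

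SHH is itself a floor plate marker, and the other markers of that list that were tested were lower on treatment too. With SHH counted, 5 of 5 tested were lower among GFP-negative and 4 of 4 among GFP-positive cells, beside 9.75% and 11.2% of all genes. Their sum, SHH included, was 106 to 178 CPM in control and 31.0 to 57.3 CPM in treated GFP-negative cells, and 23.8 to 25.7 CPM in control and 6.73 to 8.05 CPM in treated GFP-positive cells. FERD3L was at or under 3 counts in every library of 3 groups, all but control GFP-negative cells. FOXA2, the transcription factor that defines the floor plate, averaged 22.0 and 9.60 CPM in control and treated GFP-negative cells, and fell there by 1.22 on the log2 scale (adjusted p = 0.017). In GFP-positive cells it averaged 1.79 and 0.494 CPM and fell by 1.79 on the log2 scale (adjusted p = 3.1e-04). Lists of other cell types also had lower calls, and some had higher calls. Of the interneuron markers tested, 6 of 7 were lower in GFP-negative cells, where their sum went from 47.1 to 54.5 CPM in controls to 9.03 to 12.7 CPM, and 2 of 3 were lower in GFP-positive cells (10.4 to 12.3 and 2.36 to 2.61 CPM). Mesenchymal markers were lower in 3 of 3 in GFP-positive cells (260 to 326 CPM in controls, 50.5 to 82.2 CPM treated) and in 3 of 7 in GFP-negative cells (762 to 888 and 470 to 765 CPM), and oligodendrocyte markers in 3 of 3 and in 2 of 5. The endothelial sum was instead larger after treatment. It was 11.6 to 29.8 CPM in control and 87.2 to 129 CPM in treated GFP-negative cells. In GFP-positive cells it was 1.91 to 2.78 CPM and 7.62 to 9.87 CPM. Of that list KDR was called higher in both fractions, TEK lower in GFP-negative and CDH5 lower in GFP-positive cells. Of the astrocyte list GFAP was higher and SLC1A3 lower in GFP-negative cells. GFAP passed the low-count filter there through its treated libraries, with 31 to 64 counts against 6 to 14 in controls. The size of its change is therefore uncertain, and its call depends on that filter. The part of any of these cells in the change of SHH was not tested.

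HHIP, the ligand trap, lies on chromosome 4 from 144646156 to 144745271 on the plus strand, next to the promoter printed above. It had 2.01, 2.03 and 2.18 CPM in control GFP-positive libraries and 12.7, 11.6 and 8.0 CPM in treated GFP-positive libraries. The treated libraries were all well above the controls, and the log2 fold change of 2.44 (SE 0.25, edgeR adjusted p = 4.8e-10) was the only rise called among the 9 genes. It kept that call in 14 of 14 alternative fits, between 1.90 and 2.62. In GFP-negative cells HHIP had 3.55, 3.99 and 4.08 CPM in controls and 7.60, 6.87 and 4.92 CPM after treatment. These groups did not overlap either, but the log2 fold change of 0.72 (SE 0.27, adjusted p = 0.069) was not called.

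The response of HHIP was larger in GFP-positive than in GFP-negative cells by 1.64 on the log2 scale (SE 0.34, 95% interval 0.92 to 2.36, edgeR adjusted p = 0.02), in the test of the interaction of treatment and sort fraction over all 12 libraries. It was the 1 of 9 members called there, beside 0.968% of 16226 genes called higher and 1.22% called lower, and 0 members were called lower. The call was lost when control GFP-negative replicate 2, control GFP-positive replicate 1 or 2, or treated GFP-positive replicate 1 was left out, with values of 1.62 to 1.66 and adjusted p from 0.051 to 0.067, and with a GC trend removed from each library (1.49, adjusted p = 0.053). Treatment also changed the order of the fractions for this gene: HHIP was higher in GFP-negative cells among controls (log2 difference -1.01, adjusted p = 0.012, GFP-positive minus GFP-negative) and higher in GFP-positive cells among treated libraries (0.76, adjusted p = 0.021, under 2-fold). The control difference lay at the 2-fold limit and kept its call in 4 of 14 alternatives.

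HHIP-AS1 overlaps HHIP by 15202 bases on the opposite strand, and whether the counting used strand is not given in the sources used here, so reads of the pair may not be told apart. HHIP-AS1 had 3.10, 2.87 and 3.62 CPM in control and 4.23, 4.52 and 3.10 CPM in treated GFP-positive libraries, which overlap. Its log2 fold change was 0.37 (SE 0.27, adjusted p = 0.26) there and 0.57 (SE 0.43, adjusted p = 0.34) in GFP-negative cells, so it did not pass the test in either fraction. It was named for its position.

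PTCH1, the SHH receptor, lies on chromosome 9 from 95442980 to 95517057 on the minus strand. Per kilobase of its canonical transcript it was the most abundant of the 9 genes in GFP-positive cells, at 7.70 ± 0.493 CPM per kb (SD, n = 3) in controls. In GFP-negative cells it had 73.7, 123 and 124 CPM in controls and 46.0, 56.2 and 53.0 CPM after treatment. The groups did not overlap, although control replicate 1 was far below the other 2 controls, and the gene fell by 1.07 on the log2 scale (SE 0.22, edgeR adjusted p = 0.0049). Without control GFP-negative replicate 2 or 3 the value was -0.95 and the change dropped under 2-fold. In GFP-positive cells PTCH1 had 68.0, 62.0 and 70.2 CPM in controls and 43.1, 38.7 and 50.5 CPM after treatment, a log2 fold change of -0.53 (SE 0.17, adjusted p = 0.0096) that stayed under 2-fold. The feedback genes PTCH1 and HHIP thus had values of opposite sign in each fraction.

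SMO, the transducer, was the most abundant member per kilobase in GFP-negative cells, at 41.2 ± 2.83 CPM per kb (SD, n = 3) in controls. It had 164, 175 and 153 CPM in control and 78.9, 110 and 83.3 CPM in treated GFP-negative libraries, with a log2 fold change of -0.87 (SE 0.17, adjusted p = 0.0042). In GFP-positive cells it had 25.2, 26.8 and 24.9 CPM in control and 16.1, 14.9 and 14.4 CPM in treated libraries, with a log2 fold change of -0.69 (SE 0.19, adjusted p = 0.0021). Treated libraries were below control libraries in both fractions, by less than 2-fold, so SMO was not called in either.

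BOC, a co-receptor, followed SMO closely in level across the 4 groups. It had 74.1, 72.1 and 50.9 CPM in control and 24.7, 36.0 and 37.1 CPM in treated GFP-negative libraries, and fell by 1.03 on the log2 scale (SE 0.22, adjusted p = 0.0061). In GFP-positive cells it had 7.12, 7.24 and 6.91 CPM in control and 3.69, 3.41 and 3.66 CPM in treated libraries, a difference of -0.92 (SE 0.24, adjusted p = 0.0017) that missed the 2-fold limit. The interval of the difference between the fractions ran from -0.57 to 0.62. The BOC call among GFP-negative cells sat at the same limit: without control replicate 1 or 2, or treated replicate 1, the value was -0.94, -0.96 and -0.88, and with a GC trend removed from each library it was -0.83.

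GAS1, the co-receptor anchored in the membrane by a lipid, was scarce, with 20 to 168 counts per library. It had 3.38, 4.93 and 2.60 CPM in control and 0.950, 1.49 and 1.35 CPM in treated GFP-negative libraries, and fell by 1.54 on the log2 scale (SE 0.36, adjusted p = 0.0095). In GFP-positive cells it had 1.94, 1.85 and 2.21 CPM in control and 0.600, 0.830 and 1.19 CPM in treated libraries, and fell by 1.12 on the log2 scale (SE 0.36, adjusted p = 0.01). The groups did not overlap in either fraction. The call was lost among GFP-positive cells without treated replicate 1 (-0.92, adjusted p = 0.066) or with a GC trend removed from each library (-0.82, adjusted p = 0.072), and among GFP-negative cells without control replicate 2 (-1.26, adjusted p = 0.063) or treated replicate 1 (-1.39, adjusted p = 0.052).

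**Figure D2:**
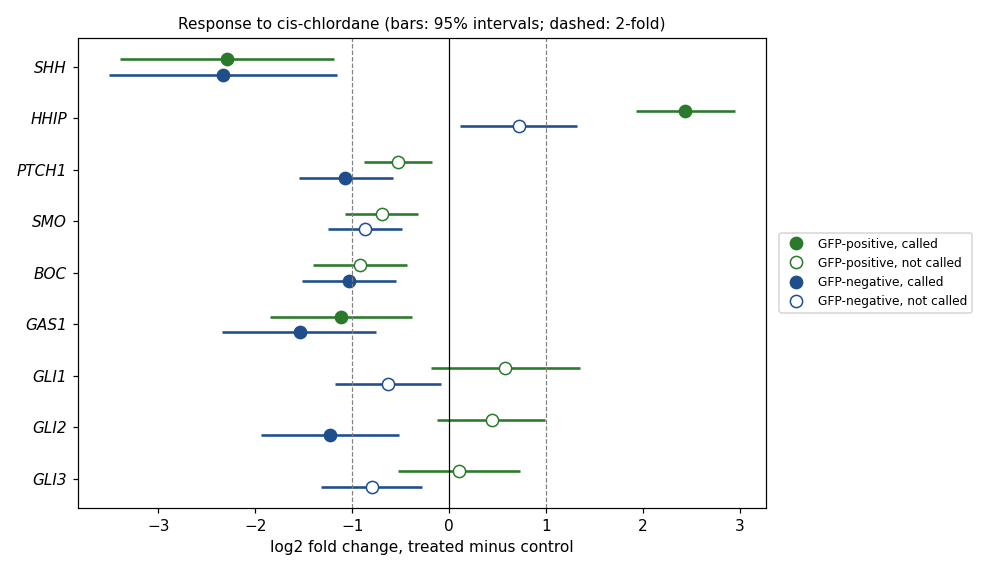
Log2 fold change of each of the 9 genes on treatment in GFP-positive (green) and GFP-negative (blue) cells, with 95% intervals; filled points were called and dashed lines mark 2-fold. HHIP lies far to the right in GFP-positive cells at 2.44, SHH lies near -2.3 in both fractions, and the 3 GLI genes lie right of 0 in GFP-positive and left of 0 in GFP-negative cells.

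The GLI factors were the members whose values took opposite signs in the sort fractions. GLI2, the main activator, had 30.8, 40.4 and 36.1 CPM in control and 13.7, 23.7 and 8.96 CPM in treated GFP-negative libraries, and fell by 1.23 on the log2 scale (SE 0.32, edgeR adjusted p = 0.016). Its treated libraries were widely spread but all below the controls. In GFP-positive cells it had 6.26, 4.06 and 6.72 CPM in control and 10.4, 7.90 and 3.79 CPM in treated libraries, which overlap, and a log2 fold change of 0.44 (SE 0.27, adjusted p = 0.18). The GFP-negative call was lost without control replicate 2 (-1.13, adjusted p = 0.065), treated replicate 1 (-1.16, adjusted p = 0.08) or treated replicate 3 (-0.96, adjusted p = 0.046), or with a GC trend removed from each library (-0.99, adjusted p = 0.045).

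GLI1, the target gene most often read as a gauge of pathway activity, had 15.1, 13.5 and 10.6 CPM in control and 7.73, 10.8 and 7.22 CPM in treated GFP-negative libraries. A single treated library reached into the control range, and the log2 fold change of -0.63 (SE 0.25, adjusted p = 0.079) was not called. In GFP-positive cells GLI1 was scarce, at 0.97, 0.840 and 0.832 CPM in control and 1.32, 1.35 and 1.11 CPM in treated libraries, on 26 to 29 and 42 to 47 counts. Each treated library lay above each control, but the log2 fold change of 0.58 (SE 0.38, adjusted p = 0.2) was not called.

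GLI3, the main repressor, had 15.4, 18.6 and 17.9 CPM in control and 8.64, 13.1 and 8.43 CPM in treated GFP-negative libraries. These groups did not overlap, and the log2 fold change of -0.80 (SE 0.23, adjusted p = 0.026) was under 2-fold. In GFP-positive cells it had 2.16, 2.11 and 2.02 CPM in control and 2.55, 2.00 and 1.88 CPM in treated libraries, with a log2 fold change of 0.10, whose 95% interval ran from -0.53 to 0.73. The sign of that value turned without treated GFP-positive replicate 1, to -0.05.

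The difference between the fractions in response to treatment was tested for the GLI genes too. It was 1.12 for GLI1 (SE 0.34, adjusted p = 0.11), 1.58 for GLI2 (SE 0.50, adjusted p = 0.12) and 0.81 for GLI3 (SE 0.31, adjusted p = 0.2), and none was called. GFP-positive and GFP-negative libraries of one treatment and number were paired by their labels as sorts of the same culture. With the culture as a replicate block GLI1 (1.13, adjusted p = 0.036) and GLI2 (1.60, adjusted p = 0.0093) were called beside HHIP, which raised the members called from 1 to 3. In that fit 519 genes were higher and 745 lower in all, in place of 157 and 198. Over all alternatives the adjusted p ranged from 0.036 to 0.23 for GLI1 and from 0.0093 to 0.32 for GLI2. For PTCH1, SMO, BOC, GAS1 and SHH the differences were between -0.05 and 0.45 and none was called.

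GLI1 begins 504 bases after the end of INHBE, on chromosome 12 and on the same strand, and INHBE, which encodes a secreted hormone subunit, was among the genes that rose most. INHBE was named for this position. It had 0.373, 0.492 and 0.416 CPM in control and 38.6, 25 and 28.5 CPM in treated GFP-positive libraries, a log2 fold change of 6.21 (SE 0.28, adjusted p = 3.2e-19). In GFP-negative cells it averaged 0.777 CPM in controls and 30.7 CPM after treatment, and its log2 fold change was 5.27 (SE 0.25, adjusted p = 4.7e-06). Beside this, GLI1 averaged 0.881 CPM in control and 1.26 CPM in treated GFP-positive cells, and 13.1 and 8.57 CPM in GFP-negative cells. Its difference between the fractions was 15.9-fold in controls and 6.71-fold after treatment. Whether reads running on from INHBE were counted for GLI1 was not tested.

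**Figure D3:**
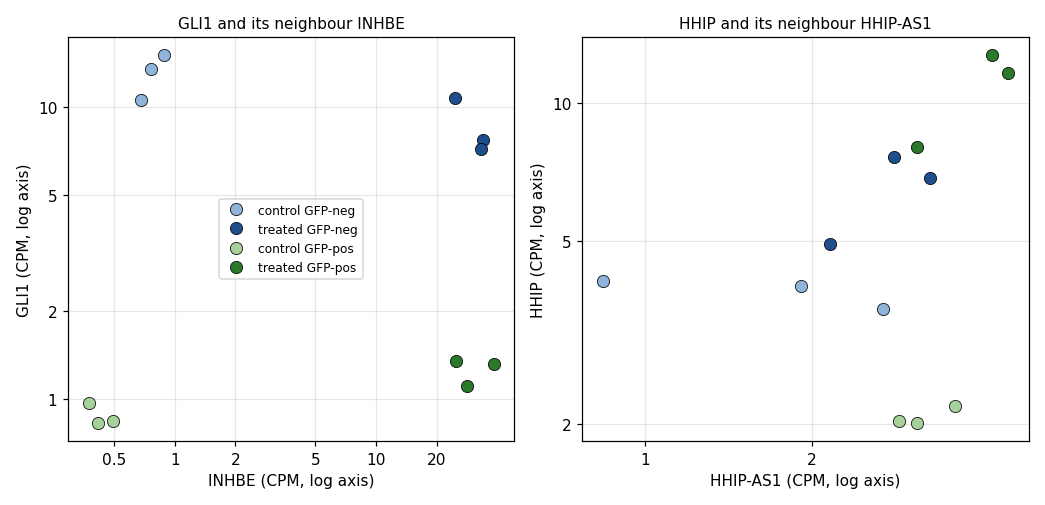
Level of GLI1 against its upstream neighbour INHBE (left) and of HHIP against the antisense gene HHIP-AS1 (right), in CPM on log axes, 1 point per library in the colours of the 4 groups. INHBE rose in treated libraries of both fractions, and GLI1 was separated by fraction in control and treated libraries alike. HHIP differed between treated and control GFP-positive cells, and HHIP-AS1 overlapped between them.

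For 6 of the 9 genes the fold difference between the control sort fractions was larger than either response to treatment. In controls GLI1 was 15.9-fold, SHH 10.6-fold, BOC 9.93-fold, GLI3 8.86-fold, SMO 6.87-fold, GLI2 6.77-fold and HHIP 2.01-fold lower in GFP-positive than in GFP-negative cells. That is 7 of 9 called lower and 0 called higher, beside 15.3% lower and 7.47% higher of 15404 genes. PTCH1 (log2 difference -0.79, adjusted p = 0.012) and GAS1 (-0.96, adjusted p = 0.031) were lower in each GFP-positive library too, by less than 2-fold. After treatment 6 of 9 were called lower and 0 higher, beside 13.7% and 10.0% of 15416 genes. These were SHH (10.1-fold), BOC (8.94-fold), GLI1 (6.71-fold), SMO (5.92-fold), GLI3 (4.63-fold) and GLI2 (2.09-fold). SHH passed the low-count filter there only through its GFP-negative libraries, with 4 to 6 counts in the GFP-positive ones. The size of its difference is therefore uncertain, and its call depends on that filter. The GLI2 groups overlapped, and its call was lost without treated GFP-negative replicate 2 (-0.59, adjusted p = 0.16) or treated GFP-positive replicate 2 (-1.14, adjusted p = 0.068) or 3 (-0.76, adjusted p = 0.09), with library size alone (-0.90, adjusted p = 0.06) and with a GC trend removed from each library (-0.72, adjusted p = 0.13). PTCH1 (-0.21, adjusted p = 0.31) and GAS1 (-0.50, adjusted p = 0.29) overlapped between the treated fractions. The comparisons share libraries with those of treatment.

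Markers of progenitor and dividing cells differed between the sort fractions, and some markers of both kinds also between treated and control cells. The sum of 7 markers of dividing cells was 607 to 793 CPM in control GFP-negative and 76.6 to 111 CPM in control GFP-positive cells. All 7 were called lower in the latter, beside 15.3% of all genes. After treatment the sum was 198 to 287 CPM in GFP-negative cells, where 6 of 7 were lower, beside 9.75% of all genes. In treated GFP-positive cells it was 47.1 to 51.1 CPM, and 3 of 7 were lower, beside 11.2% of all genes. The sum of 8 neural progenitor markers was 6409 to 8507 CPM in control and 7384 to 8427 CPM in treated GFP-negative cells, and 3076 to 3466 and 2414 to 3239 CPM in GFP-positive cells, with HES5 at or under 3 counts in all 4 groups. Single progenitor markers did not follow that sum. SOX3, SOX1, MSI1, SOX9 and NES, 5 of the 7 tested, were lower in treated GFP-negative cells, beside 9.75% of all genes. In treated GFP-positive cells SOX3 alone, 1 of 7, was lower, near the 11.2% of all genes. VIM, the largest part of the sum, averaged 3863 CPM in control and 6426 CPM in treated GFP-negative cells. NES went the other way there, from 2634 to 1119 CPM. The progenitor sums of control and treated cells overlapped in both fractions. The part of these cells in the levels of the 9 genes was not tested.

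**Figure D4:**
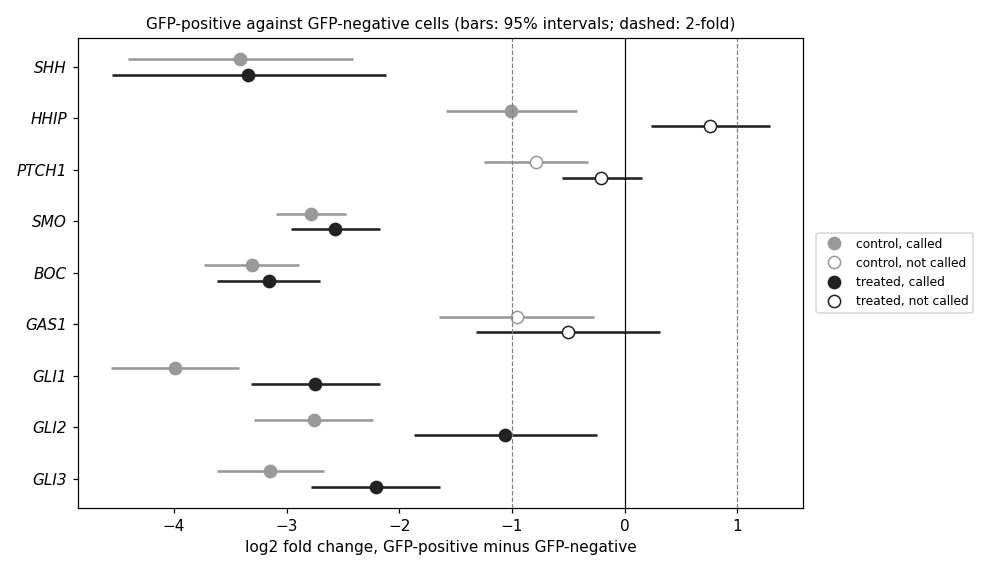
Log2 difference of each of the 9 genes between GFP-positive and GFP-negative cells in control (grey) and treated (black) libraries, with 95% intervals; filled points were called and dashed lines mark 2-fold. All 9 genes lie further right after treatment than before it, by the least for SHH (-3.41 and -3.34), and HHIP alone crosses 0, from -1.01 to 0.76. Control and treated points come from separate fits. In the interaction fit of all 12 libraries the difference was -0.05 for SHH, and HHIP alone was called.

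The order of the 4 groups was shared by SMO, BOC and SHH, which fell from control GFP-negative over treated GFP-negative and control GFP-positive to treated GFP-positive cells. For SMO and BOC all neighbours in that order were separate, and for SHH treated GFP-negative and control GFP-positive cells overlapped. PTCH1 and GAS1 instead had control GFP-positive cells in second place, and their treated groups overlapped with each other. GLI1, GLI2 and GLI3 had both GFP-negative groups first and treated above control GFP-positive cells, with an overlap of these last groups for GLI2 and GLI3, of the GFP-negative groups for GLI1 and of the treated groups for GLI2. HHIP stood alone in having both treated groups above both control groups, with no overlap between neighbours.

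Among the 62 other genes of the pathway lists, more were called lower than higher on treatment. In GFP-positive cells 56 were tested, of which 6 were higher and 14 lower, beside 12.8% and 11.2% of all genes, with a median log2 fold change of -0.18 against 0.03 over all genes. In GFP-negative cells 57 were tested, of which 1 was higher and 16 lower, beside 8.59% and 9.75%, with a median of -0.45 against -0.01. The share higher in GFP-positive cells was thus close to that of all genes. Counts of the single lists that follow are to be read against the same shares. The lists overlap, and some hold members of the set.

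Among the genes that make and release the ligands, every gene called on treatment was lower. In GFP-positive cells 4 of 9 tested, SHH among them, were lower and 0 higher, beside 11.2% lower and 12.8% higher of all genes. In GFP-negative cells 4 of 8, again with SHH, were lower and 0 higher, beside 9.75% and 8.59%. SCUBE3, a secreted protein of a family that helps release the lipid-bearing ligand, fell to 11.8 from 53.4 CPM in GFP-positive cells (log2 fold change -2.12, adjusted p = 1.1e-11) and to 16.1 from 67.8 CPM in GFP-negative cells (-2.09, adjusted p = 4.4e-04). DISP3, a relative of the ligand exporter DISP1, fell as well, with log2 fold changes of -1.5 and -1.81. SCUBE1 was called in GFP-negative cells (-1.89) and missed the 2-fold limit in GFP-positive cells (-0.92), and its interaction was not called (adjusted p = 0.093).

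Of 10 receptors, co-receptors and ligand traps, HHIP was higher and 3 were lower in GFP-positive cells, beside 12.8% and 11.2% of all genes, and 0 were higher and 4 lower in GFP-negative cells, beside 8.59% and 9.75%. These counts hold 2 members in GFP-positive and 3 in GFP-negative cells. GPC3, a glypican that binds the ligand, and LRP2, an endocytic receptor for it, were the other genes called in GFP-positive cells, with log2 fold changes of -1.21 and -1.06.

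Of 16 GLI factors and regulators, 1 was lower in GFP-positive and 2 in GFP-negative cells, and 0 were higher, which for the lower genes is near the 11.2% and 9.75% of all genes. SUFU, which holds the GLI proteins in check, was the gene lower in both, at 27.7 against 71.3 CPM in GFP-positive cells (log2 fold change -1.30, adjusted p = 2.4e-07) and 28.0 against 64.2 CPM in GFP-negative cells (-1.22, adjusted p = 0.0011). SUFU RNA was thus lower in each fraction, beside GLI values of opposite sign. The list of ciliary machinery had a median of 0.82 in GFP-positive cells, where 3 of 12 were higher and 1 lower, beside 12.8% and 11.2% of all genes. In GFP-negative cells its median was 0.44, and 1 of 12 was higher and 0 lower, a share higher near the 8.59% of all genes. DYNC2H1, the motor of retrograde transport in the cilium, was higher in GFP-positive (2.23, adjusted p = 6.5e-11) and GFP-negative cells (1.24, adjusted p = 0.02). EVC (1.5) and EVC2 (1.24), partners that relay the SMO signal at the base of the cilium, were higher in GFP-positive cells, where INPP5E, a ciliary phosphatase, was lower (-1.01).

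Among 17 target genes, the genes called went both ways in GFP-positive cells and down in GFP-negative cells. In GFP-positive cells 2 of 15 tested were higher, HHIP and the cell cycle gene CCND2 (2.08, adjusted p = 3.1e-11), and 4 were lower, beside 12.8% higher and 11.2% lower of all genes, led by NKX6-2 (-2.10), FOXA2 (-1.79) and FOXC2 (-1.53). In GFP-negative cells 0 of 16 were higher and 8 lower, beside 8.59% and 9.75% of all genes, led by FOXC2 (-2.56), NKX2-2 (-1.75) and NKX6-2 (-1.37). The interaction was called for HHIP, CCND2 (1.43, adjusted p = 0.03) and OLIG2 (1.59, adjusted p = 0.0098), the transcription factor of motor neuron progenitors. OLIG2 had 5.88 against 3.15 CPM in treated and control GFP-positive cells (0.97, adjusted p = 0.002) and 11.8 against 19.1 CPM in GFP-negative cells (-0.71, adjusted p = 0.025), under 2-fold in each.

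Among progenitor factors, those that SHH induces and those that it represses both had more genes called lower than higher on treatment. Beside the same shares of all genes, 2 of 5 tested ventral factors induced by SHH were lower in GFP-positive and 5 of 7 in GFP-negative cells, and 0 were higher. Of the dorsal and intermediate factors that SHH represses, 3 of 7 were lower and 2 higher in GFP-positive cells, and 4 of 7 were lower and 0 higher in GFP-negative cells. The higher genes were PAX6, a factor of intermediate progenitors, at 30.5 against 7.93 CPM (log2 fold change 2.01, adjusted p = 5.0e-10), and MSX1, a dorsal factor, at 1.14. The response of PAX6 differed between the fractions by 1.81 (adjusted p = 0.0022). PAX7, a dorsal factor, was called at -2.87 in GFP-positive cells but passed the low-count filter there through its controls, with 23 to 33 counts against 3 to 7 in treated libraries, so its size is uncertain. IRX5 fell in both fractions, by 1.16 and 1.15 on the log2 scale.

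**Figure D5:**
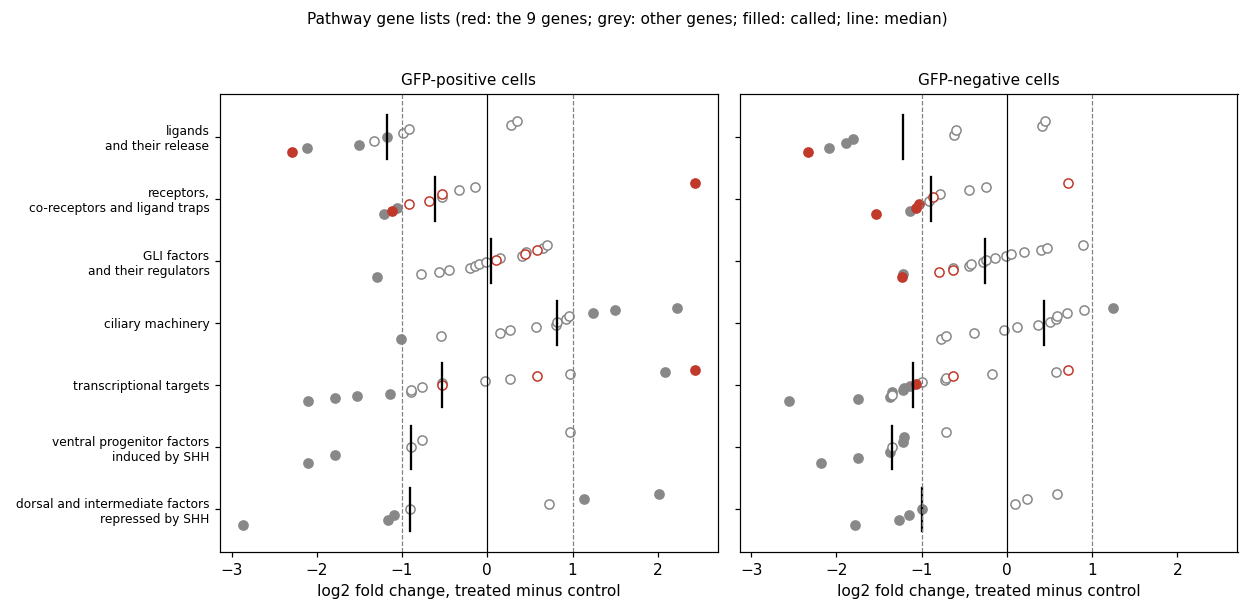
Log2 fold change on treatment of the tested genes in 7 pathway lists, in GFP-positive (left) and GFP-negative cells (right), with the 9 genes in red, other genes in grey, called genes filled and a line at the median of each list. The lines of the ligand list and of both progenitor lists lie left of 0 in both panels, and that of ciliary machinery lies right of 0, at 0.82 and 0.44.

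Across the 12 libraries, the genes whose levels ran most nearly parallel to a member were found by the correlation of log2(CPM + 1) over 16225 genes, as a description. BOC was among the 2 genes nearest to SMO, with r = 1.00 between them over all libraries but 0.58 around the group means. SMO was not among the 2 nearest to BOC. Next to SHH were KCNJ8 (0.99) and GDPD2 (0.98), next to PTCH1 ARHGEF6 (0.98) and PAX5 (0.96), and next to HHIP MYH15 (0.98) and EML6 (0.97). GLI1 stood nearest to PPP1R13L and MCUB (0.99 each), GLI2 to WWC1 and ANKRD33B (0.97 each), GLI3 to ITGB5 and ALPL (0.99 each), GAS1 to NUP62 and NAT8L (0.97 each), SMO to EPHB4 (1.00) and BOC to FZD2 and NUAK2 (1.00 each). The points share culture, sort fraction and treatment, and around the group means the same pairs had r between 0.55 and 0.95.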

How the data were processed

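RNA-seq of 12 libraries, 3 in each of 4 groups, was analysed, and the sample labels gave the group and number of each library. The authors joined the lanes of a library, mapped single-end reads of a stranded mRNA kit to hg38 with HISAT2 and an Ensembl GRCh38 annotation, and deposited whole-number counts per gene without normalization. The submitters' processing notes also name featureCounts. Of the per-sample columns, 0 were left unused.

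Each comparison was fitted with edgeR 4.0.16 in R 4.3.3 on the libraries it compares, and the interaction of treatment and sort fraction on all 12. Counts were scaled by TMM, filterByExpr kept genes (minimum count 10 scaled to library size, minimum total 15), and the two-sided quasi-likelihood F-test was adjusted by Benjamini-Hochberg over all genes tested. A call needed an adjusted p below 0.05 and at least a 2-fold change, or for the interaction the adjusted p alone. The SE is the unshrunken log2 coefficient over the root of F. No exact permutation test of single genes is given, since 3 libraries against 3 cannot go below p = 0.1. Levels are TMM-scaled CPM over all 12 libraries, per kilobase of the canonical transcript where stated. Positions, lengths and GC content are from GENCODE release 44 on the same build, a later annotation than that of the authors. Groups whose libraries all held at most 3 counts were taken as at the floor, which covers counting error only. In every pair, libraries of a group differed beyond sampling noise, so all 12 were kept.

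The 9 genes and all gene lists were chosen with earlier results of these data known. Genes named are the members, up to 3 called genes of each list in each direction with the largest change, the 2 genes most like each member, and checks of the sort and treatment. INHBE and HHIP-AS1 were added as neighbours, and LHX3, SCUBE1, IRX5, OLIG2 and PAX7 are also given in comparisons where the rule did not pick them. A few genes under this rule are left unreported.

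Sort fractions of one treatment and number were taken from their labels to come from the same culture. Across 13830 genes the correlation of their deviations from group means was 0.452, 0.149 and 0.407 in controls, and 0.243, 0.264 and 0.536 after treatment, with genes not independent of each other. The best match was the own number in each pair except treated replicate 1. Alternatives were DESeq2 1.42.0, RLE scaling, library size alone, all genes unfiltered, a minimum of 10 counts in each library, one fit of all 12 libraries, a replicate block, removal of each library's GC trend (loess, span 0.5), a pseudocount of 0.1 for likeness, and each library left out in turn. The fits were tested on simulated counts, and figures were drawn with matplotlib 3.10.9.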

Additional observations from a re-analysis of the deposited data

Results flagged for a closer look

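HHIP was picked out because its response to cis-chlordane differed between the sort fractions in a test of the difference itself. The log2 response was larger in GFP-positive than in GFP-negative cells by 1.64 (edgeR adjusted p = 0.02), from 2.44 and 0.72. The call was lost in 4 of 12 fits that left out a library, with adjusted p from 0.051 to 0.067, and with the GC trend removed (1.49, adjusted p = 0.053). HHIP was higher in 3 of 3 treated GFP-positive and in 3 of 3 treated GFP-negative libraries than in any control library of the same fraction.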

How the results depend on the processing

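Of 672 recomputed values of the 9 genes, 614 kept their direction and their side of the threshold, 34 lost a call, 10 gained a call and 14 changed sign. The fall of SHH in GFP-negative cells and the rise of HHIP in GFP-positive cells kept their calls in 14 of 14 alternatives each. The fall of SHH in GFP-positive cells kept its call in 13 of the 13 that could test it. In the reported fit SHH passed the low-count filter there only through its controls, with 4 to 6 counts in treated libraries, so the size of that fall is uncertain. The cause of the changes listed here was not tested.

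In GFP-positive cells the members called lower, 2 as reported, came to 1 with at least 10 counts in every library, where SHH was not tested, to 1 with the GC trend removed, which ended the call of GAS1, and to 1 to 2 with single libraries left out. GLI3 there ranged from -0.05 to 0.18 with single libraries left out. In GFP-negative cells the members called lower, 5 as reported, came to 3 with the GC trend removed (SHH, PTCH1 and GAS1) and to 1 to 7 with single libraries left out. Without control GFP-negative replicate 2 the 1 left was SHH, and without treated GFP-negative replicate 1 the 2 left were SHH and PTCH1.

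For the interaction, the members called higher, 1 as reported, were 3 under DESeq2, 3 with the culture as replicate block, and 0 to 1 with single libraries left out. All genes called higher, 157 as reported, were 411 under DESeq2, 266 with library size alone, 519 with the culture block and 68 to 212 with single libraries left out. Those called lower, 198 as reported, were 378, 84, 745 and 47 to 202 in the same order, and 105 with at least 10 counts in every library. Library size alone therefore moved the share of higher calls, and it shifted the median of all genes from -0.05 to 0.20 in the interaction, from 0.03 to 0.14 on treatment of GFP-positive cells and from 0.05 to 0.22 between the treated fractions. HHIP had 1.49 (adjusted p = 0.053) in the interaction with the GC trend removed, and GLI1 had 1.27 (adjusted p = 0.041). The SHH interaction changed sign under RLE scaling (0.01), library size alone (0.20), the culture block (0.03) and GC removal (0.05), and ran from -0.44 to 0.35 with single libraries left out. The BOC interaction ran from -0.14 to 0.18.

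Control and treated libraries share replicate numbers only. Their deviations correlated at -0.0690, 0.210 and 0.249 in GFP-positive and at -0.0340, 0.342 and -0.0495 in GFP-negative cells, and in 3 of these 6 pairs the best match was the own number. With the number as replicate block the members called were 1 higher and 2 lower in GFP-positive and 0 higher and 5 lower in GFP-negative cells, and of all genes 1944 and 1288 were higher and 1708 and 1406 lower. Between the sort fractions the culture block changed no call of a member. Leaving out a library leaves 2 in its group. Levels under 1 CPM, as of SHH and GLI1 in GFP-positive cells, rest on few counts.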
